A study of Mus musculus with 6 samples.

Results

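The respiratory chain was followed through its 101 genes among the 38924 rows of a mouse expression table. Members were the rows named Nduf, Sdha to Sdhd, Uqcr, Cyc1, Cycs, Cox4i, Cox5, Cox6, Cox7, Cox8 and Atp5, together with the mt-Nd, mt-Co, mt-Atp and mt-Cytb genes of the mitochondrial genome, while pseudogene names and the Ndufaf and Sdhaf assembly factors were left out. Of the members, 88 were nuclear and 13 mitochondrial. All 13 mitochondrial genes and 80 of the 88 nuclear genes had 2 or more of the 6 libraries at 1 RPKM or above and were tested. RPKM is the number of reads on a gene divided by the gene's length and by the depth of the library. Fold changes below are differences of mean log2(RPKM + 1), given ± SE, and their p-values come from limma with Benjamini-Hochberg adjustment over the 10958 genes tested. A gene is said to have risen or fallen only where the adjusted p was under 0.05.

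The libraries were made from C57BL/6 mice that had received transduced bone marrow. The leukemia group carried Evi1 and GFP and was taken 6 months after transplantation, the preleukemia group carried Evi1 and GFP and was taken at 4 weeks, and the mock group carried GFP alone and was taken at 4 weeks. Each group had 2 libraries, and all 6 came from bone marrow cells sorted as GFP+, Lin- (lacking lineage markers) and c-kit+, so all groups share transplantation, transduction and the sort. A GFP group taken at 6 months was not among the libraries, so time after transplantation and leukemia cannot be told apart, and leukemia also differs from preleukemia by time. Nothing in the labels ties the libraries to separate mice, and the p-values then rest on a spread between libraries that may be technical only.

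The respiratory chain passes electrons from NADH and succinate to oxygen in the inner mitochondrial membrane and uses the proton gradient so formed to make ATP. Complex I oxidises NADH, complex II oxidises succinate, complex III passes electrons to cytochrome c, complex IV reduces oxygen and complex V is the ATP synthase. Complex II is encoded by nuclear genes alone, and every other complex combines nuclear subunits with subunits encoded and transcribed inside the mitochondrion. In bone marrow, quiescent stem cells are known for low respiration, and erythroid and other proliferating progenitors for more.

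Depth implied by the values was 16921446 to 21640426 reads a library, so that a 1 kb gene with 3 reads would read 0.139 to 0.177 RPKM. Mecom, the gene that encodes Evi1, stood at 61.7 and 71.5 RPKM in leukemia, 78.0 and 80.1 in preleukemia and 0.774 and 0.805 in mock. Kit, the sorted surface receptor, stood at 49.3 and 46.8 RPKM in leukemia, 60.03 and 56.9 in preleukemia and 69.2 and 57.7 in mock. Kit fell in leukemia against mock. In whole sorted populations, fewer cells of a type and less RNA per cell cannot be told apart. How reads shared between a member and its pseudogenes, or between mitochondrial genes and their nuclear copies, were counted is not given in the sources used here, and 39 members share exon bases with another gene.

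Promoters are shown for 4 nuclear members that fell in leukemia against mock (Ndufs5, Cox6a1, Atp5k and Atp5g3) and for Atp5g2, which rose. The last 2 are sister genes for the same ATP synthase subunit. Each window runs 5′ to 3′ on the gene's strand from 250 bases before to 50 after the start, from RefSeq on GRCm38.p6, and capitals mark matches on either strand to the motif of the respiratory gene regulator NRF1 (GCGCA, any base, then GCGC) or to CCGGAAG, an ETS motif read by the regulator GABP.
Ndufs5, chr4:123718137-123718436, minus strand: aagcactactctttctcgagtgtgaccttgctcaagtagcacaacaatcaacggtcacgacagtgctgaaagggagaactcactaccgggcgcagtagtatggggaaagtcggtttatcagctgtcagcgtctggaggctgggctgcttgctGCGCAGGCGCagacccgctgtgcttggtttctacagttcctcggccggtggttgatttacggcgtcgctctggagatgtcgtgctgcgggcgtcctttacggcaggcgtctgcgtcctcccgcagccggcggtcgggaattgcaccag
Cox6a1, chr5:115348909-115349208, minus strand: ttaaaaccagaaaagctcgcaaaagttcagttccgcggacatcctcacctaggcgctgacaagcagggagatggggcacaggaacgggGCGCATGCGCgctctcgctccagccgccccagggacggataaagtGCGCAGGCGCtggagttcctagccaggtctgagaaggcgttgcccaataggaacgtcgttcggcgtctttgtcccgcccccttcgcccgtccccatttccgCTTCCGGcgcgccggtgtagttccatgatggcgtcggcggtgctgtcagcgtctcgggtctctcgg
Atp5k, chr5:108434350-108434649, minus strand: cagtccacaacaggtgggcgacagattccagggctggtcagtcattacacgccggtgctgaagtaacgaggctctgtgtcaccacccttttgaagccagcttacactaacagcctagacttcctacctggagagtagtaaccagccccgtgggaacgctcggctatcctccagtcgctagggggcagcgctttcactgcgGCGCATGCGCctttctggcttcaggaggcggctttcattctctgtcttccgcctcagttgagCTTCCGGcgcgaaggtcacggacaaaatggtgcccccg
Atp5g3, chr2:73911277-73911576, minus strand: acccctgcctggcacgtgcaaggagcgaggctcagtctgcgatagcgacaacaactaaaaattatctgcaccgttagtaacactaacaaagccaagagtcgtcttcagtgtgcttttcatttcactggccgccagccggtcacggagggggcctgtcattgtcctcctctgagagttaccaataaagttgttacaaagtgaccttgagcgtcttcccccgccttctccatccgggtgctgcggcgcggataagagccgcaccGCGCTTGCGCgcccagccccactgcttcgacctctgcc
Atp5g2, chr15:102670998-102671297, minus strand: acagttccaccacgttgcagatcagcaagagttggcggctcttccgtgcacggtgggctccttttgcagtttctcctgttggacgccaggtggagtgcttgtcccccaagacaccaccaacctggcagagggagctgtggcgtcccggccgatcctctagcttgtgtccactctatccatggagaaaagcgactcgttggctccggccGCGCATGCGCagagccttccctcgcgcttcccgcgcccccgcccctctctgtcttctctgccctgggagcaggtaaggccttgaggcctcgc

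Across the table, 68 of the 88 nuclear members matched a promoter, in 73 windows. The NRF1 motif stood in 24.7% of these windows, against 4.6% of all 32851 windows. The ETS motif stood in 21.9% of the members' windows, against 8.86% of all windows. The motif AAGATGGC of YY1, searched on both strands like the others, stood in 12.3% of the members' windows, against 2.75% of all windows. Among members that fell in leukemia against mock, 48.4% of 31 windows held at least 1 of the motifs, against 56.8% of 37 windows of members that did not pass. Atp5g3 and Atp5g2, which moved in opposite directions, each held 1 match to the NRF1 motif. Every window printed above holds that motif, against 25.8% of the 31 windows of members that fell in leukemia against mock. The printed windows therefore do not stand for those members. The window of Cox7b, which also fell, held 0 matches to any of the motifs. A match describes the letters of the window and is not evidence of binding.

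Mitochondrial genes lie close together, and 2 pairs overlap. The stretches below, from the GRCm38 mitochondrial chromosome, are shown because reads in the capitals, the shared bases, cannot be given to 1 gene of the pair.
mt-Atp8 and mt-Atp6, chrM:7907-7989, plus strand: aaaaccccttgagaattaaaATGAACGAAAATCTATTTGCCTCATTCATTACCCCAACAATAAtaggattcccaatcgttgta
mt-Nd4l and mt-Nd4, chrM:10147-10193, plus strand: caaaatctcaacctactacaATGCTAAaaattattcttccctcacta
The first overlap spans 43 bases and the second 7. The gene mt-Nd6 lies on the minus strand and overlaps mt-Nd5 by 14 bases, and the library kit by its name does not mark strand.

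Levels of the 2 genomes stood far apart. The 13 mitochondrial genes summed to 17896 and 20836 RPKM in leukemia, 21682 and 17428 in preleukemia and 22847 and 23158 in mock. The nuclear members summed to 2456 and 2245 RPKM in leukemia, 3106 and 2878 in preleukemia and 3353 and 2922 in mock. As a share of all RPKM the mitochondrial genes stood at 7.99 and 9.39% in leukemia, 8.62 and 6.99 in preleukemia and 9.63 and 9.96 in mock. The nuclear sum was lower in both leukemia libraries than in the other 4 libraries, whereas the mitochondrial sums of leukemia and preleukemia overlapped and both lay below mock. Among the 80 tested nuclear genes the median level was 21.5 RPKM in leukemia, 28.2 in preleukemia and 28.4 in mock, and the levels ran from Ndufb2, a small subunit of complex I, to Atp5a1, the alpha subunit of ATP synthase, in each group.

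Nuclear respiratory genes were lower in leukemia. Against mock, 35 of the 80 nuclear members fell and 2 rose, where 13.5% of all tested genes fell, 12.1% rose and 25.6% changed either way. Their median log2 fold change was -0.40, against -0.04 over all genes tested and -0.08 over genes with a mean of at least 10 RPKM. Both leukemia libraries were below both mock libraries in 64 of the 80 nuclear members, a pattern that held in 35.5% of all genes. They were above both mock libraries in 3 of the 80, against 30% of all genes. Without leukemia library 1 the members called, mitochondrial ones included, numbered 8 and without leukemia library 2 they numbered 1, against 39 with all libraries, and Cox7b alone stayed called under every alternative tried.

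Against preleukemia, 25 of the 80 nuclear members fell in leukemia and 0 rose by limma, where 13% of all tested genes fell, 5.27% rose and 18.3% changed either way. At an unadjusted p under 0.05, Atp5sl was the 1 nuclear member higher in leukemia and 47 were lower. The nuclear median was -0.39, against -0.09 over all genes, and 66 of the 80 members had both leukemia libraries below both preleukemia libraries, against 46% of all genes. Scaling to the sum of nuclear genes moved the median of all genes to 0.07 and that of the nuclear members to -0.21, with 7 members lower and 1 higher. The count was 3 without leukemia library 1, 0 without leukemia library 2, 0 without preleukemia library 1, 1 without preleukemia library 2 and 45 with mock library 1 or mock library 2 left out. With TMM-like, quantile and nuclear-sum scaling 73, 72 and 68 of the 80 tested nuclear members had negative fold changes, against 75 with the values as deposited; against mock the counts were 72, 69 and 69, and 74 as deposited.

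In preleukemia against mock, 1 nuclear member rose and 1 fell of 80, where 13.5% of all genes rose, 6.02% fell and 19.5% changed either way. The nuclear median was -0.02, against 0.05 over all genes. Including 2 mitochondrial genes that fell, 4 members were called, and the count was 1 with leukemia library 1 or leukemia library 2 left out, 2 without preleukemia library 1, 0 without preleukemia library 2 and 10, of which 9 were higher, without mock library 1. TMM-like scaling called 1 member higher and 9 lower. With TMM-like, quantile and nuclear-sum scaling 57, 56 and 62 of the 80 nuclear members had negative fold changes, against 42 as deposited. The comparisons share libraries, since mock serves 2 of them and leukemia 2, so their values stand side by side here and are not independent. Taken over all 6 libraries, 59 of the 80 nuclear members (73.8%) had both leukemia libraries below the other 4, against 24.1% of all genes tested.

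**Figure D1:**
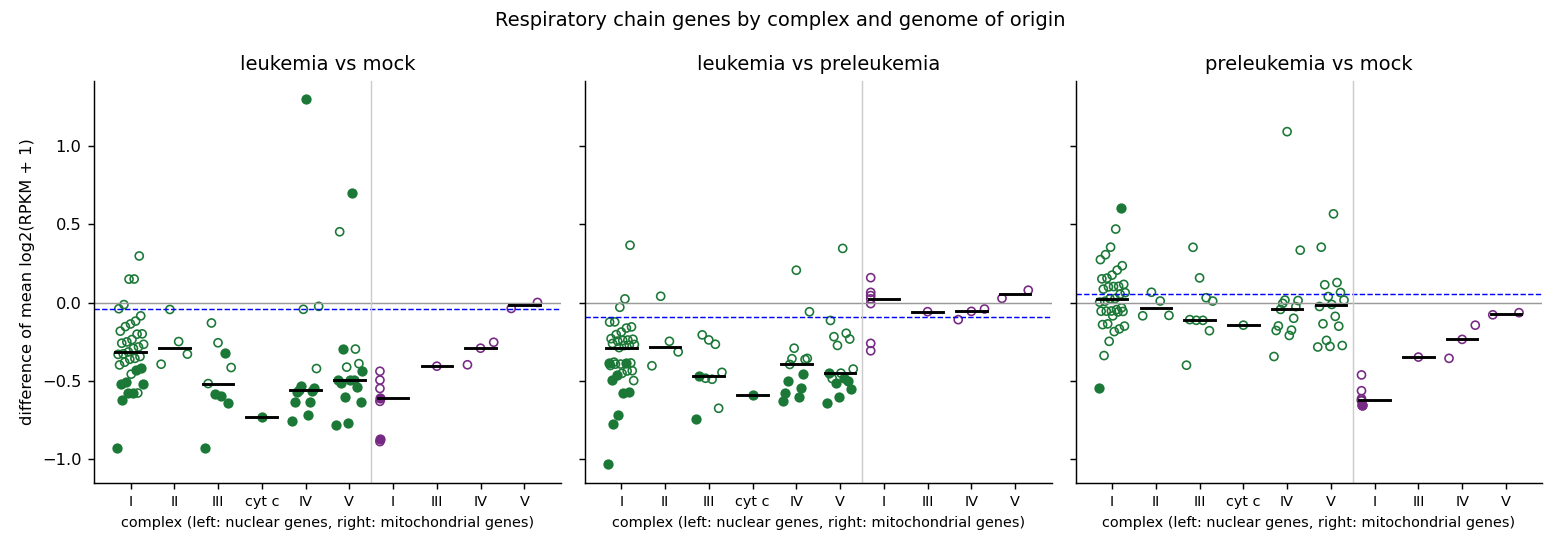
Difference of mean log2(RPKM + 1) of each tested member, by complex, for nuclear genes (green) and mitochondrial genes (purple) in the 3 comparisons. Filled points passed an adjusted p of 0.05, black bars are medians and the dashed line is the median of all genes tested. Nuclear medians lie below 0 in both leukemia comparisons, and the mitochondrial complex I genes lie below 0 in both comparisons with mock.

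Most erythroid markers were lower in leukemia than in preleukemia or mock, as were the megakaryocyte markers given below. The summed level of the 18 erythroid markers in the table was 301 and 346 RPKM in leukemia, 355 and 249.6 in preleukemia and 521 and 244 in mock, and without the globin Hbb-bt it was 34.7 and 48.1 RPKM in leukemia, 291 and 205 in preleukemia and 518 and 238 in mock. In leukemia 12 of the 15 tested erythroid markers fell against mock and 1 rose, and 11 fell and 1 rose against preleukemia, with medians of -2.11 and -2.05; the one that rose was Hbb-bt in both. In preleukemia against mock Aqp1 fell and the globins Hbb-bs, Hbb-bt and Hba-a1 rose, while 11 of the 15 fold changes were negative with a median of -0.42, where the nuclear members had -0.02. Within groups, library 1 was above library 2 in 63 of the 80 nuclear members in leukemia, 63 in preleukemia and 69 in mock, and in 5927, 6225 and 6453 of the 10958 genes tested in the same order. The erythroid sum was lower in library 1 than in library 2 in leukemia and higher in preleukemia and mock.

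Other lineages also differed between the groups. The 14 neutrophil markers summed to 1843 and 2103 RPKM in leukemia, 7753 and 12469.6 in preleukemia and 2982 and 2214 in mock. They split in leukemia against mock, where 4 of the 14 rose and 3 fell, with a median log2 fold change of 0.68. S100a8 stood at 227 and 373 RPKM in leukemia and 6.25 and 5.68 in mock. Mpo stood at 967 and 851 RPKM in leukemia and 1863 and 1325 in mock. Against preleukemia 9 of the 14 fell in leukemia and 0 rose, with a median of -2.52. The 12 megakaryocyte markers, of which Gp6 was at 0 in all libraries, summed to 4.86 and 14.3 RPKM in leukemia, 81.01 and 59.9 in preleukemia and 42.2 and 40.4 in mock. All 10 tested had negative fold changes in leukemia against either group. Of them 5 fell against mock and 8 against preleukemia. The 10 mast cell and basophil markers, with Tpsb2 and Cma1 at 0, summed to 124 and 120.4 RPKM in leukemia, 138 and 121 in preleukemia and 242 and 178 in mock. Most of the leukemia sum was Kit and Gata2, the latter at 55.9 and 54.8 RPKM in leukemia and 66.7 and 44.3 in mock. Cpa3 stood at 0.885 and 0.911 RPKM in leukemia and 41.2 and 20.3 in mock. In leukemia 7 of the 8 tested fell against mock and 2 against preleukemia, and 0 rose in either. Kit was among those that fell against mock, and Gata2 did not pass. Of all tested genes 13.5% fell and 12.1% rose against mock, and 13% fell and 5.27% rose against preleukemia. The neutrophil sum was highest in preleukemia, and the megakaryocyte sum was lowest in leukemia. The 9 B-lymphoid markers in the table summed to 12.5 and 11.9 RPKM in leukemia, 17.9 and 19.6 in preleukemia and 41.3 and 43.7 in mock. Nearly all of the leukemia sum was Cd79b, at 12.2 and 11.7 RPKM, against 8.50 and 9.51 in mock. In leukemia against mock 5 of the 6 tested fell, and 1, Cd79b, rose. Against preleukemia 1 of the 6 fell in leukemia and 0 rose. The 8 monocyte and macrophage markers summed to 482 and 506 RPKM in leukemia, 338 and 314 in preleukemia and 178 and 254 in mock. Most of the leukemia sum was F13a1, at 340.1 and 364 RPKM. The list split in leukemia against mock, where 3 of the 7 tested rose and 2 fell. Ccr2 and Cx3cr1 were lower in both leukemia libraries than in both mock libraries. Against preleukemia 2 of the 7 rose in leukemia and 1 fell. Over all libraries T and NK cell markers summed to 1.55 to 3.37 RPKM and stroma and endothelium markers to 22.9 to 47.8 RPKM. Nearly all of the stroma and endothelium sum was Pecam1, at 22.3 to 47.6 RPKM. The next highest value of that list was 0.387 RPKM, for Col1a1 in preleukemia library 2. The part of these lineages in the respiratory gene differences was not tested.

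Complex I had 37 tested nuclear members, of which 9 fell in leukemia against mock and 9 against preleukemia. Of all tested genes 13.5% fell against mock and 13% against preleukemia, the shares beside which the counts of each complex stand. The median log2 fold change of the complex I genes was -0.32 against mock and -0.29 against preleukemia, where all genes had -0.04 and -0.09.

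Ndufb6, an accessory subunit of the membrane arm, had 17.4 and 15.4 RPKM in leukemia, 25.4 and 24.5 in preleukemia and 24.1 and 23.8 in mock. Both leukemia libraries lay below the other 4, and the fold change was -0.52 ± 0.10 (adjusted p = 0.0122) against mock and -0.58 ± 0.10 (adjusted p = 0.012) against preleukemia. Ndufs5, a small subunit of the same arm at chr4:123712710-123718202, minus strand, had 6.53 and 5.74 RPKM in leukemia, 15.2 and 12.1 in preleukemia and 15.8 and 9.95 in mock. Its fold change was -0.93 ± 0.22 (adjusted p = 0.023) against mock and -1.03 ± 0.22 (adjusted p = 0.0212) against preleukemia, and its 2 mock libraries differed from each other more than the preleukemia libraries did. Ndufa1, a small membrane-arm subunit, had 24.99 and 20.5 RPKM in leukemia, 40.3 and 38.8 in preleukemia and 39.7 and 31.5 in mock. It changed by -0.62 ± 0.14 (adjusted p = 0.0231) against mock and by -0.78 ± 0.14 (adjusted p = 0.0147) against preleukemia, with no overlap of leukemia with either group.

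Ndufb5, another membrane-arm subunit, had 12.2 and 11.6 RPKM in leukemia, 14.9 and 14.3 in preleukemia and 17.8 and 17.2 in mock. Leukemia was lowest and mock highest with no overlap, and Ndufb5 changed by -0.52 ± 0.10 (adjusted p = 0.0108) in leukemia against mock and by -0.27 ± 0.10 (adjusted p = 0.0991) against preleukemia. Ndufb9, also of the membrane arm, had 37.3 and 30.6 RPKM in leukemia, 44.7 and 44.6 in preleukemia and 53.4 and 48.6 in mock. Its fold change was -0.58 ± 0.12 (adjusted p = 0.0156) against mock and -0.39 ± 0.12 (adjusted p = 0.0658) against preleukemia, so the second difference did not pass. The groups did not overlap in Ndufb9 either. Further members that fell in leukemia against mock were Ndufa10, Ndufa11, Ndufb7 and Ndufc1, with fold changes from -0.58 to -0.42. In that order their calls held in 11, 8, 4 and 6 of 11 alternatives that left out no single library. Ndufa5, Ndufb3, Ndufb10 and the core subunit Ndufs8 fell against preleukemia and did not pass against mock, and that difference between comparisons was not tested. In that order their calls against preleukemia held in 7, 10, 6 and 7 of the 11 alternatives. Those of Ndufa5, Ndufb10 and Ndufs8 were lost with TMM-like, quantile and nuclear-sum scaling.

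Preleukemia against mock gave 2 called complex I genes of nuclear origin, in opposite directions. Ndufv3, an accessory subunit beside the NADH-oxidising core, had 11.3 and 13.7 RPKM in leukemia, 17.8 and 16.99 in preleukemia and 12.2 and 10.1 in mock. It rose in preleukemia, by 0.60 ± 0.14 (adjusted p = 0.0265), and its levels in leukemia overlapped those in mock. Atp5sl, named for a likeness to an ATP synthase gene and known as an assembly factor of the distal membrane arm of complex I, had 9.78 and 9.93 RPKM in leukemia, 7.72 and 7.13 in preleukemia and 10.6 and 12.1 in mock. It fell in preleukemia, with a fold change of -0.55 ± 0.11 (adjusted p = 0.0198), and both preleukemia libraries were the lowest of the 6.

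Complex II, succinate dehydrogenase, had 4 members, and 0 passed in any comparison by limma. At an unadjusted p under 0.05, 1 was lower in leukemia than in mock, 1 lower than in preleukemia and 0 differed between preleukemia and mock. Sdha, the flavoprotein that binds succinate, had 45.4 and 44.4 RPKM in leukemia, 56.8 and 50.4 in preleukemia and 66.00 and 48.7 in mock. Sdhb, the iron-sulfur subunit, had 19.8 and 17.3 RPKM in leukemia, 19.03 and 16.9 in preleukemia and 21.3 and 17.1 in mock. Leukemia libraries of Sdha lay below all others, while those of Sdhb overlapped both groups.

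The membrane anchors were Sdhc and Sdhd. Sdhc had 15.01 and 15.2 RPKM in leukemia, 20.6 and 17.6 in preleukemia and 21.2 and 15.5 in mock. Sdhd had 47.3 and 41.5 RPKM in leukemia, 61.4 and 56.6 in preleukemia and 65.8 and 52.02 in mock. Against mock the fold changes in leukemia were -0.33 ± 0.15 (adjusted p = 0.156) for Sdha, -0.04 ± 0.14 (adjusted p = 0.837) for Sdhb, -0.25 ± 0.16 (adjusted p = 0.287) for Sdhc and -0.39 ± 0.14 (adjusted p = 0.0785) for Sdhd. Against preleukemia they were -0.25 ± 0.15 (adjusted p = 0.305) for Sdha, 0.04 ± 0.14 (adjusted p = 0.87) for Sdhb, -0.32 ± 0.16 (adjusted p = 0.217) for Sdhc and -0.40 ± 0.14 (adjusted p = 0.089) for Sdhd. In preleukemia against mock all 4 lay between -0.08 and 0.07. Both anchors were lower in each leukemia library than in any other, but their mock libraries were far apart.

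Complex III had 9 nuclear members, of which 5 fell in leukemia against mock, where 13.5% of all tested genes fell, with a median of -0.52 against -0.04 over all genes. Cyc1, cytochrome c1, which hands electrons to cytochrome c, lies at chr15:76343523-76346260, plus strand, and had 37.2 and 35.8 RPKM in leukemia, 50.2 and 51.7 in preleukemia and 57.2 and 53.3 in mock. Leukemia lay below both other groups with no overlap, and the fold change was -0.58 ± 0.09 (adjusted p = 0.00581) against mock and -0.47 ± 0.09 (adjusted p = 0.0163) against preleukemia. Uqcrq, a small subunit that lies against the mitochondrial cytochrome b, had 9.75 and 6.62 RPKM in leukemia, 14.3 and 14.1 in preleukemia and 15.03 and 17.4 in mock. Its fold change was -0.93 ± 0.17 (adjusted p = 0.0115) against mock and -0.75 ± 0.17 (adjusted p = 0.0303) against preleukemia, the largest fall among the complex III genes in both comparisons.

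Uqcrfs1, the Rieske iron-sulfur protein, had 30.6 and 29.3 RPKM in leukemia, 40.3 and 31.2 in preleukemia and 51.4 and 43.2 in mock. Leukemia and mock did not overlap, with a fold change of -0.64 ± 0.15 (adjusted p = 0.0221), whereas preleukemia library 2 stood close to leukemia and the fold change against preleukemia was -0.24 ± 0.15 (adjusted p = 0.304). The other complex III genes that fell against mock were Uqcr10 and the core subunit Uqcrc2, at -0.60 ± 0.14 (adjusted p = 0.0246) and -0.32 ± 0.09 (adjusted p = 0.0468). Their calls held in 8 and 5 of 11 alternatives that left out no single library. Uqcrb, Uqcr11, Uqcrc1 and Uqcrh had negative fold changes that did not pass. Cyc1 and Uqcrq were the 2 of the 9 that fell against preleukemia, where the median was -0.47. In that order these calls held in 10 and 7 of the 11 alternatives. The Uqcrq call was lost with TMM-like, quantile and nuclear-sum scaling, and the Cyc1 call with nuclear-sum scaling.

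Cycs, the somatic cytochrome c that carries electrons from complex III to complex IV and triggers apoptosis when released, had 11.9 and 10.7 RPKM in leukemia, 17.6 and 17.4 in preleukemia and 22.95 and 16.4 in mock. Leukemia lay below the other 4 libraries, mock library 1 stood above mock library 2, and preleukemia lay between the mock libraries. The fold change in leukemia was -0.73 ± 0.16 (adjusted p = 0.0194) against mock and -0.59 ± 0.16 (adjusted p = 0.049) against preleukemia, and it was -0.14 ± 0.16 (adjusted p = 0.558) in preleukemia against mock. Of 11 alternatives that left out no single library, the Cycs call held in 10 against mock and 6 against preleukemia. The mean level of Cycs in leukemia was 0.574 of that in mock, a lower ratio than any nuclear complex sum had. The testis cytochrome c gene Cyct, which the member rule does not name, was at 0 in every library but mock library 2, where it stood at 0.907 RPKM.

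Complex IV had 20 nuclear members, of which 13 were tested, counting Ndufa4, a subunit once assigned to complex I. In leukemia against mock 9 fell and 1 rose, with a median of -0.56, and 6 fell against preleukemia, with a median of -0.40. Of all tested genes 13.5% fell and 12.1% rose against mock and 13% fell against preleukemia. Cox7b, a small subunit needed for assembly of the oxidase, lies at chrX:106015700-106022450, plus strand, and had 27.7 and 24.9 RPKM in leukemia, 42.4 and 38.5 in preleukemia and 46.6 and 43.4 in mock. The 3 groups did not overlap. The fold change was -0.75 ± 0.11 (adjusted p = 0.00388) in leukemia against mock, the smallest p among the members, and -0.60 ± 0.11 (adjusted p = 0.0119) against preleukemia.

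Cox4i1, the common form of the largest nuclear subunit, had 25.2 and 22.03 RPKM in leukemia, 37.8 and 33.6 in preleukemia and 33.2 and 37.6 in mock. In leukemia it changed by -0.56 ± 0.12 (adjusted p = 0.017) against mock and by -0.58 ± 0.12 (adjusted p = 0.0205) against preleukemia, with preleukemia and mock overlapping each other. Cox6a1, the common form of a subunit at the dimer face, had 79.5 and 68.1 RPKM in leukemia, 102 and 101 in preleukemia and 113 and 105 in mock. Its fold changes were -0.56 ± 0.11 (adjusted p = 0.0122) and -0.46 ± 0.11 (adjusted p = 0.0303) in leukemia against mock and against preleukemia. Cox8a, the common form of the smallest subunit, had 106 and 97.02 RPKM in leukemia, 135 and 125 in preleukemia and 154 and 141 in mock. It changed by -0.54 ± 0.10 (adjusted p = 0.012) against mock and by -0.36 ± 0.10 (adjusted p = 0.0559) against preleukemia, and leukemia was the lowest group for all 3 genes.

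Cox7a2, the form of its subunit used outside muscle, had 21.7 and 23.6 RPKM in leukemia, 39.1 and 32.2 in preleukemia and 36.5 and 34.8 in mock. Its leukemia fold change was -0.63 ± 0.12 (adjusted p = 0.0113) against mock and -0.63 ± 0.12 (adjusted p = 0.0155) against preleukemia. Cox7a2l, a related gene, had 78.8 and 80.5 RPKM in leukemia, 87.1 and 79.1 in preleukemia and 71.1 and 94.7 in mock. Leukemia lay between the 2 mock libraries for Cox7a2l, and its fold change was -0.04 ± 0.14 (adjusted p = 0.847) against mock and -0.06 ± 0.14 (adjusted p = 0.816) against preleukemia. Ndufa4 had 102 and 91.3 RPKM in leukemia, 126 and 111 in preleukemia and 174 and 131 in mock, with fold changes of -0.64 ± 0.16 (adjusted p = 0.0275) and -0.29 ± 0.16 (adjusted p = 0.242) in leukemia against mock and against preleukemia. Cox5a and Cox5b, subunits on the matrix side, also fell against mock, at -0.57 ± 0.12 (adjusted p = 0.0177) and -0.72 ± 0.15 (adjusted p = 0.0144).

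The Cox6b pair moved in opposite directions. Cox6b1, the form of most tissues, had 62.9 and 53.1 RPKM in leukemia, 86.2 and 78.3 in preleukemia and 92.4 and 77.7 in mock. It fell in leukemia, with a fold change of -0.54 ± 0.13 (adjusted p = 0.0259) against mock and -0.50 ± 0.13 (adjusted p = 0.0426) against preleukemia. Cox6b2, known as the testis form, lies at chr7:4751792-4753094, minus strand, and had 34.2 and 25.8 RPKM in leukemia, 26.2 and 25.1 in preleukemia and 17.2 and 7.55 in mock. It rose in leukemia against mock, at 1.30 ± 0.33 (adjusted p = 0.0309), with 0.21 ± 0.33 (adjusted p = 0.711) against preleukemia, and its value in preleukemia against mock was 1.09 ± 0.33 (adjusted p = 0.0623). Leukemia and preleukemia overlapped and both lay above mock, whose libraries were themselves far apart. Of 11 alternatives that left out no single library, the calls against mock held in 8 for Cox6b1 and 9 for Cox6b2. The Cox6b1 call against preleukemia held in 6. The Cox6b2 call was lost with no filter on low values, in the fit to the 4 leukemia and mock libraries alone and when any 1 library of leukemia or of preleukemia was left out.

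Forms of complex IV subunits known from other tissues were near or at 0. Cox4i2, the lung form, had 0.967 and 0.258 RPKM in leukemia, 0.450 and 0.117 in preleukemia and 0.822 and 0.754 in mock. Cox6a2 and Cox7a1, the heart and muscle forms, ran from 0 to 0.633 RPKM and from 0 to 0.890 RPKM over the 6 libraries. Ndufa4l2, a gene induced by low oxygen, reached at most 0.155 RPKM, and Cox8b, another heart and muscle form, was above 0 in mock library 1 alone, at 0.128. Cox7b2 and Cox8c, both testis forms, were at 0 in every library, which at 3 reads a library allows up to 0.327 RPKM for Cox7b2 and 0.387 for Cox8c, for counting error alone. These genes were not tested.

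**Figure D2:**
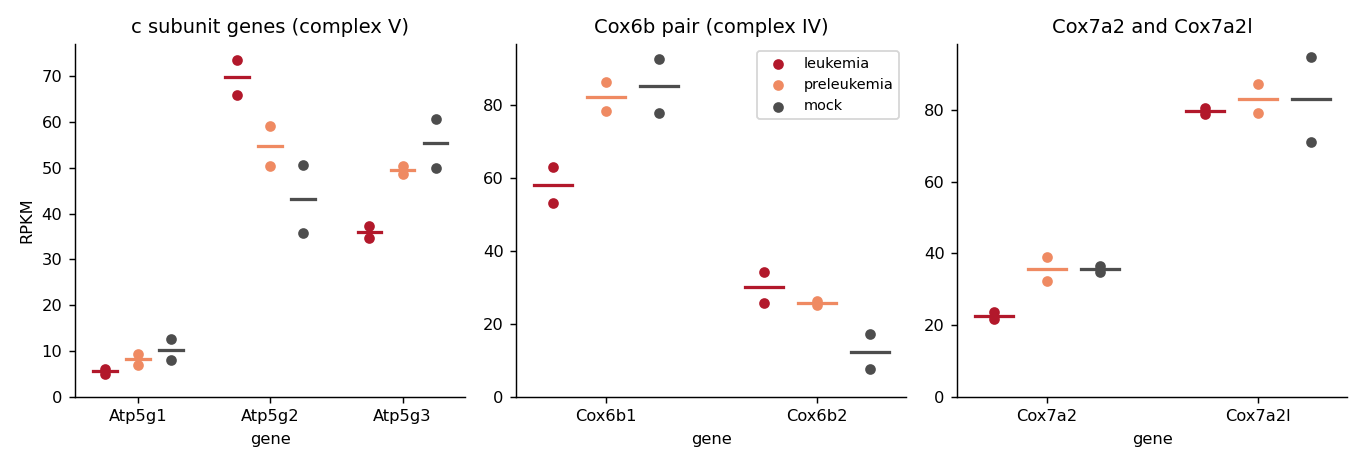
RPKM in each library (points) and group means (bars) of the c subunit genes of ATP synthase, the Cox6b pair, and Cox7a2 with Cox7a2l, for leukemia, preleukemia and mock. Group means of Atp5g2 and Cox6b2 are highest in leukemia, while those of Atp5g1, Atp5g3, Cox6b1 and Cox7a2 are lowest there. For Cox6b2 leukemia overlaps preleukemia, and both lie above mock.

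Complex V, the ATP synthase, had 17 nuclear members, of which 16 were tested. In leukemia 11 fell and 1 rose against mock, with a median of -0.49, and 7 fell against preleukemia, with a median of -0.45, beside the same shares and medians over all genes as for complexes I and IV. Atp5k, the small e subunit at the dimer face, had 14.3 and 14.6 RPKM in leukemia, 26.00 and 20.6 in preleukemia and 27.7 and 23.5 in mock. Its fold change was -0.78 ± 0.14 (adjusted p = 0.00955) against mock and -0.64 ± 0.14 (adjusted p = 0.0237) against preleukemia, and leukemia lay below the other 4 libraries. Atp5o, the stalk subunit that confers oligomycin sensitivity, had 17.7 and 16.4 RPKM in leukemia, 26.6 and 24.2 in preleukemia and 30.2 and 24.1 in mock. It changed by -0.64 ± 0.13 (adjusted p = 0.0154) and -0.55 ± 0.13 (adjusted p = 0.0322) in leukemia against mock and against preleukemia, and mock library 2 lay at the level of preleukemia.

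Atp5h, the d subunit of the peripheral stalk, had 33.5 and 29.8 RPKM in leukemia, 50.02 and 47.2 in preleukemia and 50.8 and 42.4 in mock, with fold changes of -0.54 ± 0.12 (adjusted p = 0.02) and -0.61 ± 0.12 (adjusted p = 0.0178) in leukemia against mock and against preleukemia. Atp5j2, the f subunit of the membrane part, had 16.1 and 14.2 RPKM in leukemia, 20.7 and 22.3 in preleukemia and 21.7 and 21.6 in mock, with -0.49 ± 0.10 (adjusted p = 0.017) and -0.48 ± 0.10 (adjusted p = 0.0238) in the same order. Leukemia was below every other library for both genes. The catalytic head fell against mock as well, with -0.49 ± 0.12 (adjusted p = 0.0255) for the alpha subunit Atp5a1 and -0.51 ± 0.11 (adjusted p = 0.0161) for the beta subunit Atp5b. Neither passed against preleukemia, where the fold changes were -0.22 ± 0.12 (adjusted p = 0.246) and -0.23 ± 0.11 (adjusted p = 0.18).

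The 3 genes for the c subunit, whose ring turns with the proton flow, encode 1 mature protein and differ in their import sequences. Atp5g1 had 6.05 and 5.01 RPKM in leukemia, 9.32 and 7.05 in preleukemia and 12.6 and 8.07 in mock. Atp5g3 had 37.2 and 34.7 RPKM in leukemia, 50.4 and 48.6 in preleukemia and 60.6 and 50.03 in mock. Atp5g2, at chr15:102662864-102672352, minus strand, had 73.6 and 66.01 RPKM in leukemia, 59.2 and 50.4 in preleukemia and 50.7 and 35.7 in mock. Atp5g1 and Atp5g3 were lowest in leukemia and Atp5g2 highest, with leukemia and mock not overlapping for any of the 3.

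Against mock the leukemia fold changes were -0.77 ± 0.22 (adjusted p = 0.0458) for Atp5g1, -0.60 ± 0.12 (adjusted p = 0.0123) for Atp5g3 and 0.70 ± 0.18 (adjusted p = 0.0298) for Atp5g2. Against preleukemia they were -0.49 ± 0.22 (adjusted p = 0.179), -0.45 ± 0.12 (adjusted p = 0.0404) and 0.35 ± 0.18 (adjusted p = 0.219) in the same order of genes. In preleukemia against mock they were -0.28 ± 0.22 (adjusted p = 0.402), -0.15 ± 0.12 (adjusted p = 0.394) and 0.35 ± 0.18 (adjusted p = 0.2). The rise of Atp5g2, like that of Cox6b2, was lost with no filter on low values, in the fit to the 4 leukemia and mock libraries alone and when any 1 library of leukemia or of preleukemia was left out. Of 11 alternatives that left out no single library, the calls against mock held in 9 for Atp5g2, 6 for Atp5g1 and 11 for Atp5g3. The Atp5g3 call against preleukemia held in 6 and was lost with TMM-like, quantile and nuclear-sum scaling. Atp5j shares exon bases with the regulator gene Gabpa on the other strand, and Atp5l2 was at 0 in every library.

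Summed over the nuclear members of each complex, leukemia was the lowest group throughout. The ratio of the leukemia mean to the mock mean was 0.795 for complex I, 0.799 for complex II, 0.721 for complex III, 0.712 for complex IV and 0.752 for complex V. The ratio of the preleukemia mean to the mock mean was 1.01 for complex I, 0.973 for complex II, 0.970 for complex III, 0.919 for complex IV and 0.926 for complex V. Nuclear complex I genes, for example, summed to 679.7 and 606 RPKM in leukemia, 845 and 793 in preleukemia and 853 and 765 in mock. For each complex both leukemia libraries lay below the other 4, and preleukemia overlapped mock in these sums of the values as deposited. As a share of all RPKM the nuclear members together stood at 1.10 and 1.01% in leukemia, 1.23 and 1.15 in preleukemia and 1.41 and 1.26 in mock. In that share preleukemia lay below mock with no overlap.

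**Figure D3:**
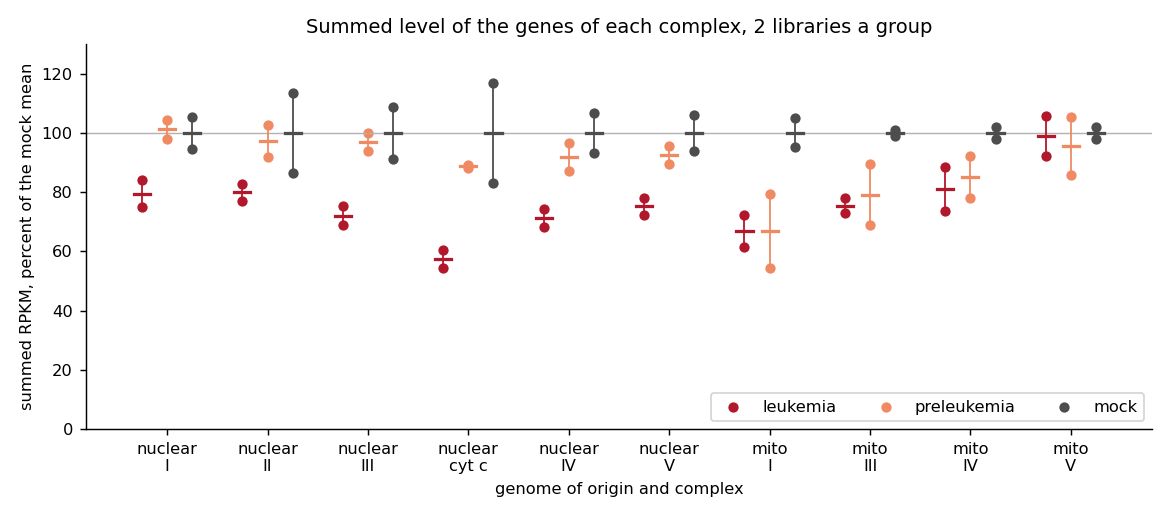
Summed RPKM of the genes of each complex in each library, as percent of the mock mean, for leukemia, preleukemia and mock, with group means as short bars and lines joining the 2 libraries. Nuclear sums are lowest in leukemia in every complex. Among mitochondrial genes the complex I sum is lower than mock in leukemia and in preleukemia, and the complex V sum overlaps mock.

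Mitochondrially encoded genes showed another pattern, in which both Evi1 groups lay below mock in most genes. In leukemia against mock 2 of the 13 fell and 0 rose by limma, where 13.5% of all tested genes fell, so that the count of calls lay near the background. In preleukemia against mock 2 fell and 0 rose, where 6.02% of all tested genes fell. At an unadjusted p under 0.05, 7 were lower and 0 higher in leukemia than in mock, and 6 were lower and 0 higher in preleukemia than in mock. Between leukemia and preleukemia 0 passed by limma, and 0 differed at an unadjusted p under 0.05. Median fold changes were -0.44 in leukemia against mock, -0.46 in preleukemia against mock and -0.01 in leukemia against preleukemia. In 10 of the 13 genes (76.9%) both mock libraries were above the other 4, against 18% of all genes tested.

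The 7 complex I genes of the mitochondrion, which form the proton-pumping core of the membrane arm, were lowest relative to mock, with median log2 fold changes of -0.61 in leukemia and -0.62 in preleukemia. The first of them on the plus strand, mt-Nd1 (chrM:2751-3707, plus strand) had 693 and 857 RPKM in leukemia, 799 and 596 in preleukemia and 1059 and 1114 in mock. Against mock its fold change was -0.50 ± 0.18 (adjusted p = 0.0828) in leukemia and -0.65 ± 0.18 (adjusted p = 0.0449) in preleukemia. Next, mt-Nd2 (chrM:3914-4951, plus strand) had 323 and 366 RPKM in leukemia, 399.6 and 278 in preleukemia and 508 and 545 in mock. It fell in both comparisons with mock, at -0.61 ± 0.18 (adjusted p = 0.0476) in leukemia and -0.66 ± 0.18 (adjusted p = 0.0465) in preleukemia. For both genes the 4 Evi1 libraries lay below mock and leukemia overlapped preleukemia. Of 17 alternatives, the preleukemia calls of mt-Nd1 and mt-Nd2 held in 7 each and the leukemia call of mt-Nd2 in 8. Of the 6 alternatives that leave out 1 library, both preleukemia calls held in 1, the one without preleukemia library 1.

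The short gene mt-Nd3 (chrM:9459-9806, plus strand) had 186 and 149.8 RPKM in leukemia, 252 and 169.7 in preleukemia and 292 and 321 in mock. It fell in leukemia against mock, at -0.87 ± 0.20 (adjusted p = 0.0222), and had -0.56 ± 0.20 (adjusted p = 0.095) in preleukemia against mock. The overlapping pair did not pass in either comparison. The first of them, mt-Nd4l, had 198 and 236 RPKM in leukemia, 371 and 181 in preleukemia and 491 and 327 in mock, with -0.89 ± 0.34 (adjusted p = 0.103) in leukemia and -0.63 ± 0.34 (adjusted p = 0.239) in preleukemia against mock. The second, mt-Nd4, had 519 and 674 RPKM in leukemia, 679 and 499 in preleukemia and 855 and 752 in mock, with -0.44 ± 0.19 (adjusted p = 0.14) and -0.46 ± 0.19 (adjusted p = 0.14) in the same order. Preleukemia library 1 reached into the mock range for mt-Nd4l but not for mt-Nd4.

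The last complex I genes of the genome were mt-Nd5 and mt-Nd6, the second on the other strand. In the libraries mt-Nd5 had 390.0 and 448 RPKM in leukemia, 465 and 343 in preleukemia and 674 and 556 in mock, with -0.55 ± 0.18 (adjusted p = 0.0642) in leukemia and -0.61 ± 0.18 (adjusted p = 0.0555) in preleukemia against mock. The levels of mt-Nd6 were 310.0 and 355 RPKM in leukemia, 423 and 262 in preleukemia and 596 and 444 in mock, with -0.63 ± 0.24 (adjusted p = 0.103) and -0.62 ± 0.24 (adjusted p = 0.12) in the same order. Neither passed, although all 4 Evi1 libraries lay below mock for both. Summed, the 7 genes gave 2618 and 3085 RPKM in leukemia, 3387 and 2329 in preleukemia and 4474 and 4059 in mock.

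Cytochrome b of complex III and the 3 mitochondrial subunits of complex IV lay between. Cytochrome b, mt-Cytb, had 1390.3 and 1482 RPKM in leukemia, 1703 and 1312 in preleukemia and 1886 and 1921 in mock, with -0.41 ± 0.15 (adjusted p = 0.0982) in leukemia and -0.35 ± 0.15 (adjusted p = 0.157) in preleukemia against mock. The oxidase subunit mt-Co1, which holds the oxygen-binding centre, had 2798 and 3202 RPKM in leukemia, 3469.7 and 3004 in preleukemia and 3505 and 3634 in mock, with -0.25 ± 0.15 (adjusted p = 0.247) and -0.14 ± 0.15 (adjusted p = 0.523) in the same order. All Evi1 libraries were below mock in both genes, by less than passes the test. For mt-Co2, which receives electrons from cytochrome c, the levels were 1909 and 2441 RPKM in leukemia, 2497 and 1976 in preleukemia and 2841 and 2847 in mock, with -0.40 ± 0.18 (adjusted p = 0.147) and -0.36 ± 0.18 (adjusted p = 0.204). For mt-Co3 they were 1763 and 2109 RPKM in leukemia, 2136 and 1883 in preleukemia and 2255 and 2471 in mock, with -0.29 ± 0.15 (adjusted p = 0.195) and -0.24 ± 0.15 (adjusted p = 0.304). All Evi1 libraries lay below mock for both.

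The ATP synthase pair did not follow. The proton-channel gene mt-Atp6 had 3824 and 4410.2 RPKM in leukemia, 4465 and 3638 in preleukemia and 4114 and 4319 in mock, with -0.04 ± 0.16 (adjusted p = 0.884) in leukemia and -0.06 ± 0.16 (adjusted p = 0.812) in preleukemia against mock. The small mt-Atp8 had 3593 and 4105 RPKM in leukemia, 4024 and 3286 in preleukemia and 3771 and 3908 in mock, with 0.00 ± 0.16 (adjusted p = 0.998) and -0.08 ± 0.16 (adjusted p = 0.762). The 3 groups overlapped for both. Against preleukemia, leukemia fold changes of the 13 genes ran from -0.31 for mt-Nd3 to 0.16 for mt-Nd1.

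The balance within the mitochondrial genome differed between the Evi1 groups and mock. The sum of the mt-Nd genes over the sum of the mt-Atp genes was 0.353 and 0.362 in leukemia, 0.399 and 0.336 in preleukemia and 0.567 and 0.493 in mock. Both Evi1 groups lay below mock with no overlap, and the ratio of means was 0.674 for leukemia over mock and 0.693 for preleukemia over mock, each with an exact two-sided permutation p = 0.333, the smallest that 2 libraries against 2 can give. For the mt-Co sum over the mt-Atp sum the values were 0.872 and 0.910 in leukemia, 0.954 and 0.991 in preleukemia and 1.09 and 1.09 in mock, in the order leukemia, preleukemia, mock from low to high with no overlap. Genes with a higher mock level had fold changes nearer to 0: across the 13 genes, which share libraries and are not independent replicates, Spearman's rho between the mock level and the fold change was 0.978 in leukemia against mock and 0.813 in preleukemia against mock. All 24 mitochondrial rRNA and tRNA rows were listed at 0 in every library and gave no further measure of the genome.

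**Figure D4:**
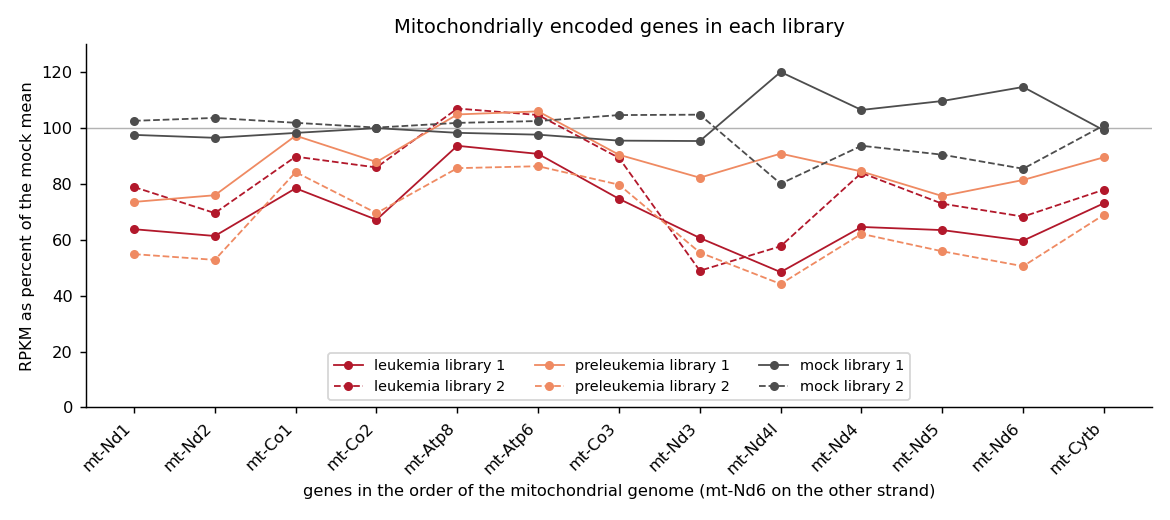
RPKM of the 13 mitochondrially encoded genes in each library as percent of the mock mean, in genome order (solid lines library 1, dashed lines library 2). The mt-Nd genes of the leukemia and preleukemia libraries lie below the mock mean, and mt-Atp8 and mt-Atp6 lie around the mock mean.

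Replicates differed within groups as well. All 13 mitochondrial genes were higher in preleukemia library 1 than in library 2, by a median of 0.42 on the log2(RPKM + 1) scale, which is about as large as the group differences. In leukemia 1 of the 13 was higher in library 1 and in mock 4 of the 13. Nuclear members were higher in library 1 in 63 of 80 in leukemia, 63 of 80 in preleukemia and 69 of 80 in mock. The sum of mitochondrial over nuclear members was 7.29 and 9.28 in leukemia, 6.98 and 6.06 in preleukemia and 6.81 and 7.93 in mock. The ratio of means was 1.12 for leukemia over mock (exact two-sided permutation p = 0.667), 1.27 for leukemia over preleukemia (p = 0.333 by the exact permutation test) and 0.884 for preleukemia over mock (p = 0.667 by the exact permutation test), where 0.333 is the smallest possible, and leukemia overlapped mock.

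Among regulators of respiratory gene expression, 10 of 14 listed genes were tested. Ppargc1b, a coactivator of mitochondrial biogenesis, had 0.775 and 0.612 RPKM in leukemia, 1.58 and 1.33 in preleukemia and 3.06 and 3.15 in mock. The 3 groups stood apart, and it fell in leukemia at -1.28 ± 0.14 (adjusted p = 0.00192) against mock and -0.54 ± 0.14 (adjusted p = 0.0455) against preleukemia, and in preleukemia at -0.74 ± 0.14 (adjusted p = 0.0162) against mock. Pprc1, a related coactivator, had 14.5 and 12.5 RPKM in leukemia, 12.2 and 12.1 in preleukemia and 17.7 and 17.5 in mock and fell in preleukemia, at -0.50 ± 0.11 (adjusted p = 0.0236), with -0.36 ± 0.11 (adjusted p = 0.0505) in leukemia against mock. Ppargc1a was below the level for testing.

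Transcription factors that bind respiratory gene promoters did not pass in any comparison. Nrf1 had 4.60 and 4.40 RPKM in leukemia, 4.09 and 4.32 in preleukemia and 4.96 and 4.83 in mock, with -0.10 ± 0.12 (adjusted p = 0.55) in leukemia against mock. Gabpa had 13.5 and 14.2 RPKM in leukemia, 15.6 and 14.9 in preleukemia and 15.7 and 15.1 in mock, with -0.15 ± 0.10 (adjusted p = 0.306). Esrra had 12.9 and 10.9 RPKM in leukemia, 10.01 and 11.99 in preleukemia and 11.1 and 10.2 in mock, with 0.14 ± 0.13 (adjusted p = 0.481). The leukemia libraries of Nrf1 and Gabpa lay a little below mock and those of Esrra overlapped it.

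Of 26 tested genes that keep and read the mitochondrial genome, 1 was lower and 1 higher in leukemia against mock and against preleukemia alike. Of all tested genes 13.5% were lower and 12.1% higher against mock, and 13% lower and 5.27% higher against preleukemia. Polg, the mitochondrial DNA polymerase, had 5.24 and 6.15 RPKM in leukemia, 10.8 and 12.8 in preleukemia and 9.36 and 8.05 in mock and fell, at -0.54 ± 0.14 (adjusted p = 0.0343) against mock and -0.94 ± 0.14 (adjusted p = 0.00769) against preleukemia. Ssbp1, which coats single-stranded mitochondrial DNA, had 16.9 and 16.5 RPKM in leukemia, 11.9 and 9.13 in preleukemia and 10.6 and 8.32 in mock and rose, at 0.77 ± 0.16 (adjusted p = 0.016) and 0.63 ± 0.16 (adjusted p = 0.0378) in the same order. Leukemia did not overlap the other groups in either gene. Tfam, which packages the genome and starts its transcription, had 8.67 and 8.06 RPKM in leukemia, 9.12 and 8.12 in preleukemia and 9.38 and 9.09 in mock, with -0.13 ± 0.11 (adjusted p = 0.43) in leukemia against mock, and Polrmt, its RNA polymerase, had 6.75 and 6.42 RPKM in leukemia, 7.91 and 7.93 in preleukemia and 7.68 and 6.06 in mock, with -0.05 ± 0.13 (adjusted p = 0.82).

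Carriers and quinone genes gave 7 of 22 tested that fell in leukemia against mock, 3 against preleukemia and 2 in preleukemia against mock, with 0 higher by limma in each. All tested genes fell at 13.5%, 13% and 6.02% in the same comparisons, and at an unadjusted p under 0.05 1 gene of the list was higher in each. Etfb, which with Etfa brings electrons from fatty acid oxidation, had 34.7 and 37.4 RPKM in leukemia, 91.9 and 98.8 in preleukemia and 80.5 and 65.5 in mock and fell in leukemia, at -0.99 ± 0.12 (adjusted p = 0.00265) against mock and -1.38 ± 0.12 (adjusted p = 0.002) against preleukemia. Slc25a5, an ADP and ATP carrier, had 173 and 152 RPKM in leukemia, 240.1 and 224 in preleukemia and 257 and 237 in mock and fell, at -0.60 ± 0.11 (adjusted p = 0.0103) and -0.51 ± 0.11 (adjusted p = 0.0231). Coq10b, which binds coenzyme Q, had 3.05 and 2.73 RPKM in leukemia, 4.40 and 4.51 in preleukemia and 7.91 and 16.7 in mock and fell against mock in both Evi1 groups, at -1.69 ± 0.29 (adjusted p = 0.00867) in leukemia and -1.20 ± 0.29 (adjusted p = 0.0334) in preleukemia. Pdss1, the first enzyme for the coenzyme Q tail, had 2.31 and 2.54 RPKM in leukemia, 2.57 and 2.43 in preleukemia and 4.31 and 4.80 in mock and fell, at -0.70 ± 0.13 (adjusted p = 0.0107) and -0.67 ± 0.13 (adjusted p = 0.0162) in the same order. Coq9, which supports coenzyme Q synthesis, had 8.06 and 8.36 RPKM in leukemia, 11.7 and 11.3 in preleukemia and 10.6 and 10.4 in mock and fell against preleukemia, at -0.44 ± 0.10 (adjusted p = 0.0274).

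**Figure D5:**
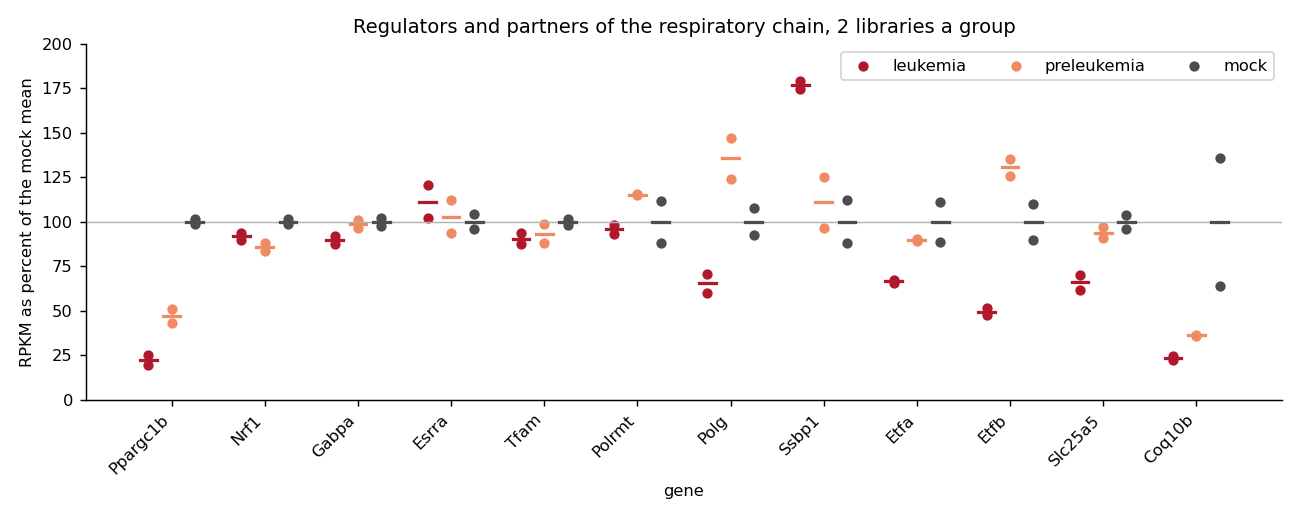
RPKM of regulators and partner genes of the respiratory chain in each library (points) with group means (bars), as percent of the mock mean, for leukemia, preleukemia and mock. Ppargc1b is lowest in leukemia and intermediate in preleukemia, Ssbp1 is highest in leukemia, and Nrf1, Gabpa, Esrra and Tfam lie near the mock mean.

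The assembly factors described here are left out by the member rule, which keeps the assembly factor Atp5sl by its name. For complex I 1 of 14 tested fell in leukemia against mock and 1 against preleukemia, where 13.5% and 13% of all tested genes fell, and from lists of this size no difference from the background is read. Ndufaf6 had 3.85 and 3.46 RPKM in leukemia, 5.07 and 4.86 in preleukemia and 5.99 and 6.01 in mock and -0.59 ± 0.12 (adjusted p = 0.0137) against mock, and Ndufaf3 had 3.97 and 4.15 RPKM in leukemia, 9.20 and 7.15 in preleukemia and 6.86 and 4.87 in mock and -0.85 ± 0.18 (adjusted p = 0.0227) against preleukemia. For complexes IV and V 1 of 24 fell in leukemia against either group, namely Higd1a, which promotes oxidase activity, with 6.28 and 6.00 RPKM in leukemia, 10.2 and 8.44 in preleukemia and 9.26 and 9.43 in mock and fold changes of -0.54 ± 0.12 (adjusted p = 0.0225) against mock and -0.53 ± 0.12 (adjusted p = 0.0303) against preleukemia. In preleukemia against mock, where 13.5% of all tested genes rose, 2 of the 24 rose, the oxidase assembly factors Coa3 at 0.89 ± 0.16 (adjusted p = 0.0138) and Pet100 at 0.65 ± 0.12 (adjusted p = 0.0155). The 6 tested assembly factors of complexes II and III gave 0 calls by limma in any comparison, and at an unadjusted p under 0.05 1 was lower in leukemia than in mock and 0 differed in the other comparisons.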

How the data were processed

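RNA was sequenced from 6 libraries of sorted mouse bone marrow cells, 2 a group. The protocol was Nucleospin RNA extraction followed by a NEBNext Ultra RNA kit, per the labels, and the kit's name does not say that it marks strand. CASAVA 1.8.2 and GRCm38 are listed, without roles, per the submitters' processing notes. For the aligner, counter and annotation a name is not given in the sources used here.

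The deposited table holds 1 value per gene and library, taken as RPKM from the values themselves: with exon lengths of GENCODE M21 on GRCm38, 64.2% to 66.0% of values under 20 reads lay within 0.02 of a whole read. Lengths and gene positions came from that release, to which 35433 rows (91.0%) and 98 members matched. Each group's mean log2(RPKM + 1) was fitted over all 6 libraries with limma 3.58.1 in R 4.3.3, with a spread that follows the mean level (3 residual and 3.70 prior degrees of freedom), for the 10958 genes that had 2 or more libraries at 1 RPKM or above. The code was tested on simulated data. Tests were two-sided, with Benjamini-Hochberg adjustment over all genes tested in a comparison and a threshold of 0.05. Low genes change less on this scale.

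Described in full were all mitochondrial members, up to 3 nuclear members per complex and comparison with the smallest adjusted p, Cycs, Sdha to Sdhd, members with alternative isoforms, up to 3 genes per pathway list and comparison, and the main regulators. Members, lists and rules were chosen with earlier results of these data known. Alternatives were other pseudocounts, filters, scalings and fits, each library left out, and library number as a replicate block.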

Additional observations from a re-analysis of the deposited data

How the results depend on the processing

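The number of members called moved with the processing, while no called fold change turned round. For leukemia against mock, 39 members were called, and the count was 21 with no filter beyond a value above 0; it ran from 1 to 51 when single libraries were left out. For leukemia against preleukemia, 25 were called, and the count was 8 with no filter, 14 with TMM-like scaling, 11 with quantile normalization, 8 with scaling to the sum of nuclear genes, 48 with limma array weights and 45 in the 4 libraries compared; leaving out single libraries gave 0 to 45. For preleukemia against mock, 4 were called, and the count was 2 with no filter, 10 with TMM-like scaling, 9 with quantile normalization (1 higher and 8 lower), 8 with nuclear scaling (0 higher and 8 lower), 2 without trend, 1 with array weights and 1 in the 4 libraries compared; leaving out single libraries gave 0 to 10. The cause of these moves was not tested. The ratio of mitochondrial to nuclear sums kept its side of the threshold throughout, in a test that cannot pass it. Library numbers did not pair samples by the labels, and the correlations of library 1 minus library 2 between groups were 0.18, 0.01 and 0.12. With library number as a replicate block the counts were 45, 33 and 4 for leukemia against mock, leukemia against preleukemia and preleukemia against mock.

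An exact two-sided test of 2 libraries against 2 cannot give a p below 0.333. Changes of genes near the floor could not be detected at this depth.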

Other observations

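Genes of the same complexes that the naming rule misses had values of the same kind. Usmg5, a small membrane subunit of ATP synthase, had 50.4 and 33.6 RPKM in leukemia, 59.1 and 61.4 in preleukemia and 72.9 and 62.3 in mock. Both leukemia libraries lay below the other 4, and the preleukemia libraries lay below mock. The row 2010107E04Rik, listed by RefSeq under Atp5mpl, had 66.8 and 62.2 RPKM in leukemia, 86.9 and 69.4 in preleukemia and 105 and 97.6 in mock, so that the groups did not overlap. Of the names the rule leaves out, Atp5l-ps1, a pseudogene, reached at most 0.445 RPKM in any library, against 60.5 RPKM or more for its parent gene Atp5l.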
